A study of Mus musculus with 6 samples.

Results

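The unfolded protein response and ER-associated degradation (ERAD) were examined through 10 genes in the livers of mice with and without hepatocyte ferroportin. The 10 genes were Ern1, Xbp1, Atf6, Atf6b, Dnajb9, Herpud1, Edem1, Sel1l, Syvn1 and Derl3. They were chosen by gene symbol from the 45777 genes listed, each matched a single row, and all 10 were among the 17274 genes tested.

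When misfolded proteins build up in the endoplasmic reticulum (ER), 3 sensors in its membrane respond. IRE1, encoded by Ern1, cuts a short stretch out of the Xbp1 transcript, and the religated transcript encodes the active transcription factor XBP1s. ATF6 moves to the Golgi, where proteases release its transcription factor part, whereas the third sensor, PERK, slows translation. XBP1s and ATF6 raise chaperones and the machinery of ERAD, which recognises misfolded proteins, passes them back across the ER membrane and marks them with ubiquitin for the proteasome. Hepatocytes secrete large amounts of protein and depend on this system.

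Livers came from male C57BL/6 mice fed a high-fat diet (HFD), and the labels put all 6 libraries in 1 batch. Controls were littermates homozygous for floxed Slc40a1, the ferroportin gene, without Cre (Fpn flox/flox, here LT, n = 3 mice). The other 3 mice carried the same floxed alleles together with Alb-Cre (Alb-Cre; Fpn flox/flox, here Fpn-LKO). The albumin promoter drives Cre in hepatocytes, and the paper describes the deletion as specific to these cells. The labels give neither age nor time on the diet, and the methods start HFD feeding in young adults.

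Total counts lay between 43086184 and 47778683 per library. Values are CPM, the deposited counts divided by TMM-scaled library size, and fold changes set Fpn-LKO over LT by edgeR's quasi-likelihood test, with p-values adjusted over all genes tested (Benjamini-Hochberg). Slc40a1 itself had 153 ± 27.0 CPM in LT against 154 ± 18.7 CPM in those labelled Fpn-LKO (SD, n = 3 each), so every direction below rests on the labels. The count covers the whole gene and does not show whether a part of it is missing. Hepatocyte identity was clear in each library, with Alb between 38100 and 48200 CPM. In whole liver, fewer cells of a type and less RNA per cell cannot be told apart.

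None of the 10 genes passed an adjusted p of 0.05 (adjusted p from 0.982 to 0.995), against 0.0232% of all genes tested. With DESeq2 and with exactTest none passed either, where these tests called 0.417% and 0.365% of all genes. At an unadjusted p under 0.05 there was 1 gene of the 10, Sel1l, against 4.80% of all genes. CPM did not overlap between the groups for 3 of the 10, Sel1l and Atf6b with higher values and Ern1 with lower values in the libraries labelled Fpn-LKO, against 10.6% of all genes. The log2 fold change was positive for 6 of the 10, where 49.4% of all genes were positive, and its median was 0.21 against -0.004 over all genes. With 3 mice a group, an exact permutation test of 1 gene cannot give a p below 0.1.

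**Figure D1:**
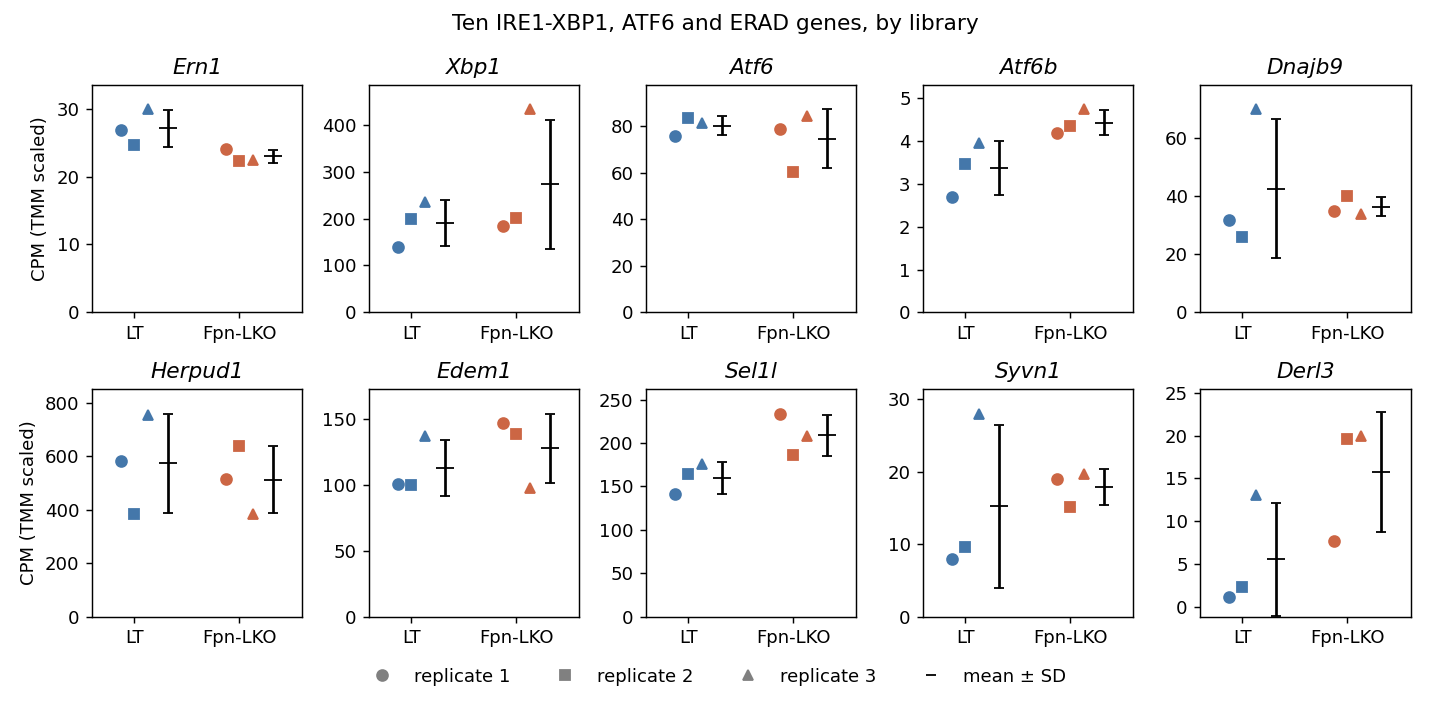
CPM of the 10 genes by library, with 1 panel a gene, markers for the replicates of LT (blue) and Fpn-LKO (orange), and bars for the mean and SD of 3 mice. The groups do not overlap for Ern1, Atf6b and Sel1l, whereas LT replicate 3 has the highest value of the 6 for Ern1, Dnajb9, Herpud1 and Syvn1.

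The stretch that IRE1 removes from Xbp1 is shown because it decides which protein a read of this gene stands for. In the coding sequence of the GENCODE transcript Xbp1-201, 6 pairs of the IRE1 cleavage consensus CNGCAG lie within 60 bases of each other. Taking out the bases between them lengthens the reading frame of 267 codons for 2 pairs, to 371 codons when 26 bases go and to 370 when 29 go. The 26 bases, the form IRE1 is known to remove, lie within exon 4, at chr11:5524279-5524304 of GRCm38 on the plus strand, and are in capitals with 30 bases on either side.
Xbp1: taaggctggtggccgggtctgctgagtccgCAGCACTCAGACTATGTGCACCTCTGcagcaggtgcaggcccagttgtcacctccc
The deposited table gives 1 count over the 2 RefSeq transcripts it lists for Xbp1. Spliced and unspliced forms are therefore summed, and the values below say nothing of how much Xbp1 was cut.

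Ern1 (chromosome 11, 106397620 to 106487796 of GRCm38), the sensor and nuclease, had 26.8, 24.6 and 29.9 CPM in LT against 24.1, 22.3 and 22.5 CPM in those labelled Fpn-LKO. All 3 of the latter lay below every LT value, though LT replicate 2 and Fpn-LKO replicate 1 lay close together. The difference on the log2 scale was -0.24 (standard error 0.11, unadjusted p = 0.0739, adjusted p = 0.982).

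Xbp1 (chromosome 11, 5520641 to 5525993), the target of IRE1, had 139, 200 and 235 CPM in LT against 185, 202 and 433 CPM in those labelled Fpn-LKO. The groups overlapped, and Fpn-LKO replicate 3 alone stood high. The log2 fold change was 0.51 (standard error 0.35, adjusted p = 0.982) and 0.02 without that library. The same library held the highest value for 9 of 10 Kupffer cell and macrophage markers, whose summed level was 669 CPM there and 301 to 461 CPM in the others. Their part in the Xbp1 value was not tested.

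Atf6 (chromosome 1, 170704457 to 170868585), the second sensor, varied least within LT, with 76.0, 83.7 and 81.2 CPM. The libraries labelled Fpn-LKO had 78.9, 60.4 and 84.6 CPM, of which replicate 2 was below and the others within or just above the LT range (log2 fold change -0.11, standard error 0.14, adjusted p = 0.995). Its relative Atf6b (chromosome 17, 34647146 to 34655074), which encodes a similar factor cleaved in the same way, was scarce in both groups. It had 2.69, 3.46 and 3.96 CPM in LT against 4.19, 4.35 and 4.74 CPM in those labelled Fpn-LKO. All 3 of the latter were above every LT value, a log2 fold change of 0.39 (standard error 0.21, unadjusted p = 0.107, adjusted p = 0.982).

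Of the induced genes, Dnajb9 and Herpud1 had negative log2 fold changes. Dnajb9 (chromosome 12, 44205897 to 44210068), an ER co-chaperone that binds misfolded ERAD clients and also restrains IRE1, had 31.8, 26.0 and 70.0 CPM in LT against 35.0, 40.1 and 34.0 CPM in those labelled Fpn-LKO. LT replicate 3 lay far above the other 5 libraries, which ranged from 26.0 to 40.1 CPM. The log2 fold change was -0.23 (standard error 0.34, adjusted p = 0.995) and turned to 0.33 without LT replicate 3. On the log2(TPM + 1) scale, with limma, it was 0.00. A reference transcript of another gene, Gm6568, is 93.3% identical to Dnajb9 over 697 of its 2461 bases, so the assignment of reads there is uncertain, although the deposited table lists Gm6568 at 0 in each library.

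Herpud1 (chromosome 8, 94386429 to 94395371), a membrane scaffold of the ERAD complex, had 584, 382 and 755 CPM in LT against 513, 637 and 385 CPM in those labelled Fpn-LKO. The groups overlapped fully (log2 fold change -0.16, standard error 0.28, adjusted p = 0.995), and the sign turned without LT replicate 3 (0.09) or Fpn-LKO replicate 3 (0.01).

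The remaining 4 genes, all of the degradation machinery, had positive log2 fold changes between 0.18 and 1.51. Edem1 (chromosome 6, 108824045 to 108859356), a mannosidase-like factor that marks glycoproteins for disposal, had 101, 100 and 137 CPM in LT against 147, 139 and 97.8 CPM in those labelled Fpn-LKO. Here 2 of the 3 libraries were above every LT value and Fpn-LKO replicate 3 was below all (log2 fold change 0.18, standard error 0.19, adjusted p = 0.991).

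Sel1l (chromosome 12, 91806043 to 91849157), the adaptor that stabilises the HRD1 ubiquitin ligase, showed the smallest p of the 10. It had 141, 164 and 176 CPM in LT against 234, 186 and 208 CPM in those labelled Fpn-LKO, with all 3 above the highest LT value. Mean CPM was 160 ± 18.2 in LT and 209 ± 23.7 in the other group (SD, n = 3), a 1.31-fold difference (log2 fold change 0.38, standard error 0.14, unadjusted p = 0.0259, adjusted p = 0.982). Across the 14 alternative analyses the log2 fold change stayed between 0.30 and 0.48, with unadjusted p from 0.00946 to 0.0853.

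Syvn1 (chromosome 19, 6046576 to 6053718) encodes HRD1, the ligase itself. It had 7.87, 9.63 and 28.0 CPM in LT against 18.9, 15.1 and 19.7 CPM in those labelled Fpn-LKO. LT replicate 3 was the highest of the 6 and the other LT libraries the lowest, with all Fpn-LKO values between (log2 fold change 0.24, standard error 0.45, adjusted p = 0.995). In the GENCODE annotation, 1.87% of its exon bases overlap those of Mrpl49 on the other strand.

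Derl3 (chromosome 10, 75893398 to 75895941), a derlin of the channel through which clients leave the ER, had the widest range of the 10, 17.1-fold between the lowest and highest library. It had 1.16, 2.33 and 13.1 CPM in LT against 7.63, 19.6 and 19.9 CPM in those labelled Fpn-LKO. Fpn-LKO replicates 2 and 3 exceeded every LT library, and replicate 1 lay below LT replicate 3. Mean CPM was 5.52 ± 6.57 in LT and 15.7 ± 7.0 in the other group (SD, n = 3), and the fitted fold was 2.85 (log2 fold change 1.51, standard error 0.83, unadjusted p = 0.108, adjusted p = 0.982).

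Derl3 is strongly expressed in professional secretory cells, so markers of these were examined. Of 16 pancreatic acinar genes, 14 had no read in any library, Cpa1, Cpb1 and Pnlip among them, while Cela1 and Cela2a were highest in LT replicate 3. The summed level of the acinar genes, nearly all of it Cela1, was 11.1 to 28.5 CPM in LT against 12.6 to 16.5 CPM in those labelled Fpn-LKO. Cela2a had 0.577 to 1.5 CPM in LT and at most 0.343 CPM in those labelled Fpn-LKO. Among the 12 plasma and B cell markers, Igll1 had no read and Tnfrsf17 was seen in 1 library, LT replicate 1, at 0.121 CPM. Jchain, the joining chain of secreted antibody, was highest in Fpn-LKO replicate 3 (10.3 CPM, against 1.68 to 4.87 CPM in the others), and Mzb1 had at most 0.185 CPM in LT against 0.300 to 0.587 CPM in those labelled Fpn-LKO. The summed level of these markers, nearly all of it Sdc1, which hepatocytes also express, was 127 to 164 and 136 to 219 CPM. Small RNAs without a poly(A) tail (Rn7s1, Rn7s2, Rn7sk, Rpph1 and Rmrp) took 3.29% and 4.49% of the counts in Fpn-LKO replicates 2 and 3, where Derl3 was highest, and 7.65% to 10.2% in the others. Their part in the Derl3 values was not tested.

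**Figure D2:**
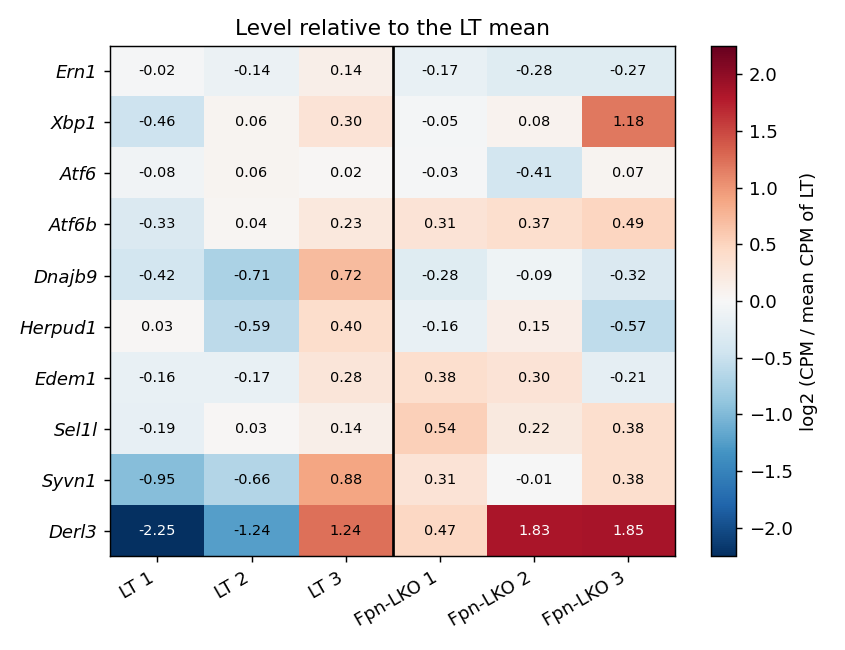
Log2 ratio of each library's CPM to the LT mean, with genes in rows and libraries in columns, printed in each cell and coloured from blue (lower) to red (higher). LT replicates 1 and 2 are mostly at or below 0, LT replicate 3 is above 0 for all 10 genes, and Derl3 reaches from -2.25 to 1.85.

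LT replicate 3 had the highest LT value for 9 of the 10 genes, Atf6 being the exception, where this library was highest of LT for 36.6% of all genes tested. The median log2 ratio to the LT mean over the 10 genes was -0.26, -0.15 and 0.29 in the LT replicates, against 0.14, 0.12 and 0.23 in the libraries labelled Fpn-LKO, so LT replicate 3 stood above all others. It was also the highest LT library for all 20 of the ER chaperones described below. Spp1, listed as a bile duct marker but made by other cells too, was at 83.1 CPM there and 11.1 to 27.7 CPM elsewhere. The duct keratins Krt19 and Krt7 had at most 0.300 and 0.194 CPM in any library. Neither had a read in LT replicate 3, and each lacked reads in other libraries too. Epcam (0.435 CPM) and Sox9 (0.846 CPM) lay there within the range of the other libraries. Cftr had no read there or in any library labelled Fpn-LKO. The part of these markers was not tested.

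Without LT replicate 3, the median log2 fold change of the 10 genes was 0.40 and 3 of them had an unadjusted p under 0.05, against 5.46% of all genes tested in that setting. These were Derl3 (log2 fold change 3.17, unadjusted p = 0.000955), Syvn1 (1.03, unadjusted p = 0.00111) and Sel1l (0.46, unadjusted p = 0.0198), and none passed over all genes (adjusted p of at least 0.555). Without LT replicate 1, by contrast, the median was 0.02 and no gene of the 10 had an unadjusted p under 0.05, against 4.57% of all genes.

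**Figure D3:**
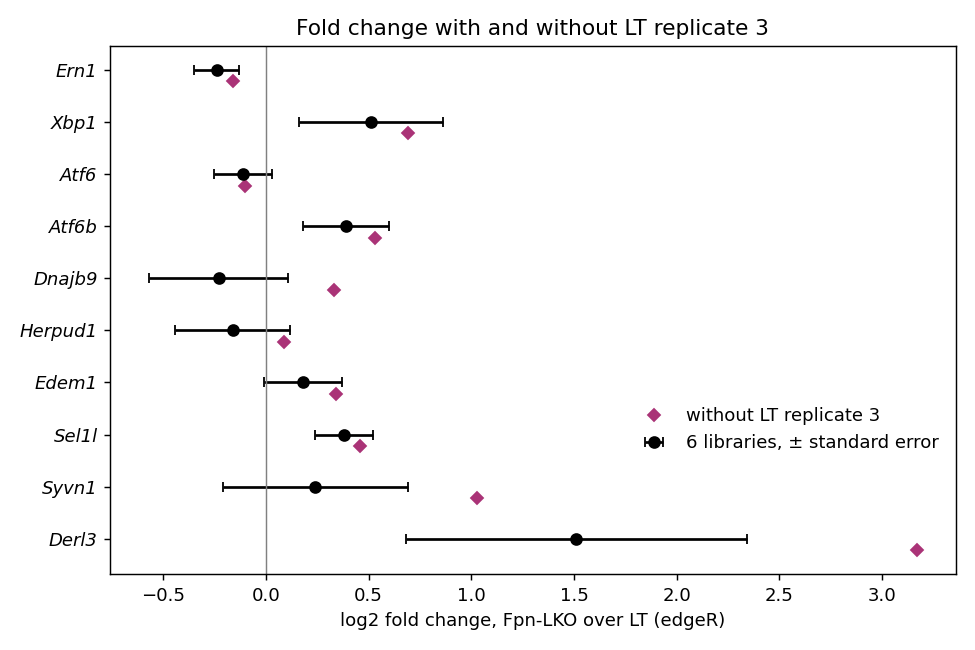
Log2 fold change of the 10 genes, Fpn-LKO over LT, with the standard error for all 6 libraries (black) and the value without LT replicate 3 (purple diamonds). Leaving out that library moves Derl3 from 1.51 to 3.17 and Syvn1 from 0.24 to 1.03, turns Dnajb9 from -0.23 to 0.33 and Herpud1 from -0.16 to 0.09, and leaves Atf6 and Ern1 at -0.10 and -0.16.

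Derl3 and Dnajb9 were set against each other within each library, a ratio chosen after their values were seen. Derl3 CPM divided by Dnajb9 CPM was 0.0367, 0.0895 and 0.187 in LT and 0.218, 0.489 and 0.584 in the libraries labelled Fpn-LKO. The highest LT ratio was thus in LT replicate 3, where both genes were high, and the groups did not overlap. The like ratio of Hspa5, the chaperone BiP, to Herpud1 was 1.23, 1.96 and 1.53 against 3.38, 1.58 and 4.83, with Fpn-LKO replicate 2 inside the LT range. Hspa5 over Dnajb9 (22.5, 28.8 and 16.5 against 49.6, 25.1 and 54.7) and Hspa5 over Xbp1 (5.15, 3.74 and 4.90 against 9.40, 4.98 and 4.30) overlapped as well, so that 1 of the 4 ratios computed did not.

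Per transcript length, the levels of the 10 genes spanned a wide range. In the authors' TPM, averaged over the 6 libraries, the order was Herpud1 (363), Xbp1 (135), Sel1l (38.5), Dnajb9 (27.3), Edem1 (24.1), Atf6 (13.5), Derl3 (10.7), Ern1 (8.21), Syvn1 (6.27) and Atf6b (1.98). Herpud1 exceeded Xbp1 in every library, although in Fpn-LKO replicate 3 the levels were 260 and 255 TPM. Dnajb9 and Edem1 did not differ beyond their spread, ranging from 17.5 to 43.1 and from 19.7 to 31.0 TPM. Derl3 changed places with its neighbours, from 1.21 TPM in LT replicate 1 to 21.9 TPM in Fpn-LKO replicate 2. Atf6b was lowest in every library except LT replicate 1, where it had 1.47 TPM and Derl3 1.21 TPM.

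For promoters, the window from 250 bases before to 50 after each listed RefSeq start (GRCm38.p6) was searched on both strands. There, 3 elements known to bind ATF6 or XBP1 were sought. They were the ER stress response element ERSE (CCAAT and CCACG with 9 bases between), ERSE-II (ATTGG and CCACG with 1 base between) and the unfolded protein response element UPRE (TGACGTGG). Of 32851 promoters, 0.119% held ERSE, 0.0365% ERSE-II and 0.676% UPRE. Promoters were listed for 9 of the 10 genes, not for Atf6, and 3 of them held a match, which is shown in capitals with up to 40 bases on either side, stopping at the start site.
Derl3 (chr10:75893202-75893300, plus strand, ERSE in reverse): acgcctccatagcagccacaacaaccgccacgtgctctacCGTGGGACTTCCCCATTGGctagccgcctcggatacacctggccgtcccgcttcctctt
Syvn1 (chr19:6046492-6046575, plus strand, ERSE): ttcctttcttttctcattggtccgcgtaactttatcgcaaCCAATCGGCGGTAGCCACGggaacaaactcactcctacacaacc
Herpud1 (chr8:94386337-94386427, plus strand, ERSE-II): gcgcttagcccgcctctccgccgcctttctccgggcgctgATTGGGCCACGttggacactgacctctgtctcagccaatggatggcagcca
The ERSE begins 156 bases before the start in Derl3 and 44 before it in Syvn1, and the ERSE-II of Herpud1 begins 52 before it. No match was found in the windows of Ern1, Xbp1, Atf6b, Dnajb9, Edem1 or Sel1l. The window listed for Edem1 (108828391 to 108828690) lies inside the gene span given above, so the start of that span was not searched. Among the ER chaperones, 8 of the 17 with a listed promoter held ERSE, namely Calr, Canx, Creld2, Dnajc3, Ero1b, Hsp90b1, Hspa5 and Pdia6, whereas none of 39 other ERAD genes with a listed promoter did.

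Other genes of the pathway were described by lists chosen with earlier results of these data known, some of which share genes. The IRE1 arm (17 genes around IRE1 and the Xbp1 ligase) had 16 tested, 0 at an unadjusted p under 0.05, against 4.80% of all genes, and a median log2 fold change of 0.02. CPM did not overlap for 3 of the 16, Traf2, Fam98b and Bax, each above LT, against 10.6% of all genes. Traf2, the adaptor that links IRE1 to JNK, had the smallest p of these (7.86 ± 0.617 and 9.54 ± 0.797 CPM, log2 fold change 0.28, unadjusted p = 0.0950), followed by Pdia6 (0.38, unadjusted p = 0.104) and Map3k5 (-0.32, unadjusted p = 0.156). Tmbim6, which inhibits IRE1, had 638 ± 19.1 and 645 ± 123 CPM.

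Transcripts that IRE1 is known to degrade in other settings had no common direction, with 3 positive and 4 negative. Of 7 tested, 1 had an unadjusted p under 0.05, against 4.80% of all genes, and 2 did not overlap between the groups, against 10.6%. The former was Pdgfrb, with 5.41 ± 0.301 CPM in LT against 7.51 ± 1.65 CPM in those labelled Fpn-LKO (log2 fold change 0.47, unadjusted p = 0.0460, adjusted p = 0.982), and its log2 fold change was 0.28 without Fpn-LKO replicate 1. Bloc1s1, the best-known of these targets, had 26.6 ± 1.24 and 30.2 ± 3.31 CPM without overlap (log2 fold change 0.18, unadjusted p = 0.158). The median of the list was -0.06. Pdgfrb is also a gene of hepatic stellate cells, and 11 stellate and endothelial markers summed to 649 to 690 CPM in LT and 630 to 690 CPM in those labelled Fpn-LKO, none of them at 0 throughout. Reln and Dcn made up much of this sum, and the collagens differed from it. Col1a1, scarce in both groups, had 0.683, 0.277 and 0.846 CPM in LT against 1.89, 0.857 and 1.03 CPM in the other group. It was the only 1 of the 11 markers without overlap, against 10.6% of all genes. Lyve1 was the only 1 with an unadjusted p under 0.05 (log2 fold change 1.3, unadjusted p = 0.0446), against 4.80% of all genes. Col3a1 was highest, at 43.2 CPM, in Fpn-LKO replicate 1, where Pdgfrb was highest too (9.37 CPM). Of the 11 markers, 3 were highest in that library, whereas Lrat was lowest there, at 19.6 CPM against 24.9 to 30.5 CPM elsewhere. Log2 fold changes of the list were positive for 7 and negative for 4, where 49.4% of all genes were positive. The negative ones were Reln (-0.09), Stab2 (-0.25), Kdr (-0.30) and Clec4g (-0.24). The part of these markers was not tested.

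For the ATF6 arm, 15 of 17 genes were tested, with a median log2 fold change of 0.06. Mbtps2, the site-2 protease that makes the second cut in ATF6 and in SREBP, was the only one with an unadjusted p under 0.05, against 4.80% of all genes. It had 5.34, 5.06 and 4.83 CPM in LT against 7.09, 9.15 and 7.54 CPM in those labelled Fpn-LKO, without overlap (log2 fold change 0.64, standard error 0.17, unadjusted p = 0.00580, adjusted p = 0.834). Mbtps1, the site-1 protease that cuts first, had 48.3 ± 3.61 and 50.8 ± 2.34 CPM, and Creb3l3, the liver factor processed by the same proteases, 253 ± 13.9 and 257 ± 25.5 CPM. Creb3l2 (log2 fold change -0.34, unadjusted p = 0.169) and Yy1 (0.13, unadjusted p = 0.288) came next by p.

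The rest of the ERAD machinery had log2 fold changes between -0.29 and 0.54. Of 46 genes tested, 0 had an unadjusted p under 0.05, against 4.80% of all genes. Positive values were found for 31 of the 46, where 49.4% of all genes were positive, and the median log2 fold change was 0.06. CPM did not overlap between the groups for 5 of the 46, against 10.6% of all genes, with Dnajc10, Bcap31, Rhbdd1 and Tmub2 higher and Rnf103 lower in the libraries labelled Fpn-LKO. The derlins Derl1 and Derl2 had 116 ± 6.25 and 75.1 ± 0.876 CPM in LT against 119 ± 10.3 and 79.1 ± 5.69 CPM, in contrast to the wide range of Derl3. Edem2 and Edem3, which trim mannose as the EDEM family does, had 23.1 ± 8.85 and 79.5 ± 17.7 CPM in LT against 25.1 ± 3.46 and 79.3 ± 8.05 CPM in those labelled Fpn-LKO. The lectin gene Os9 had 159 ± 31.8 and 159 ± 4.29 CPM, and Vcp, the ATPase that pulls clients from the membrane, 278 ± 24.4 and 288 ± 7.08 CPM. Tmub2 (0.25), Stub1 (-0.29) and Ube2g2 (0.33) had the smallest p of the list, with unadjusted p of 0.0677, 0.0681 and 0.0718.

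The ER chaperones had the highest median among these lists, 0.36, with 19 of 20 positive, 5 at an unadjusted p under 0.05 and 8 without overlap, where the shares of all genes were 49.4%, 4.80% and 10.6%. None passed the quasi-likelihood test over all genes, and DESeq2, which called 0.417% of all genes, called 3, Hsp90b1, Pdia3 and Pdia4 (adjusted p = 0.00142, 0.00673 and 0.0129). With exactTest, which called 0.365% of all genes, none of the 20 was called (adjusted p = 0.0825, 0.141 and 0.18 for the same 3). Hspa5 had 715, 749 and 1150 CPM in LT against 1740, 1010 and 1860 CPM in those labelled Fpn-LKO, which overlapped through Fpn-LKO replicate 2 and LT replicate 3. Sdf2l1, a co-factor of BiP, had 5.74, 9.86 and 18.8 CPM against 24.2, 21.7 and 20.7 CPM, without overlap. Of the LT libraries, replicate 3 was again the highest for both.

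The translocation and secretion genes that XBP1s is known to raise had 39 tested, 0 at an unadjusted p under 0.05, against 4.80% of all genes, and a median of 0.03. Ostc (0.34), Srp14 (0.19) and Spcs3 (0.24) had the smallest p (0.147, 0.198 and 0.207, unadjusted). In the PERK arm, 14 genes were tested with a median of 0.01. Atf3 alone had an unadjusted p under 0.05, against 4.80% of all genes. It had 0.929 ± 0.515 and 3.17 ± 1.78 CPM (log2 fold change 1.78, unadjusted p = 0.0168, adjusted p = 0.982), with overlap between the groups. Asns (-2.08, unadjusted p = 0.0525) and Nupr1 (1.26, unadjusted p = 0.0826) followed. The value for Asns was -0.98 without LT replicate 3, and that for Nupr1 was 0.67 without Fpn-LKO replicate 3 and 0.87 without LT replicate 2. Eif2ak3, the gene of PERK, had 17.6 ± 7.33 and 15.3 ± 2.37 CPM, and Ddit3, encoding CHOP, 5.75 ± 3.87 and 8.11 ± 4.58 CPM.

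**Figure D4:**
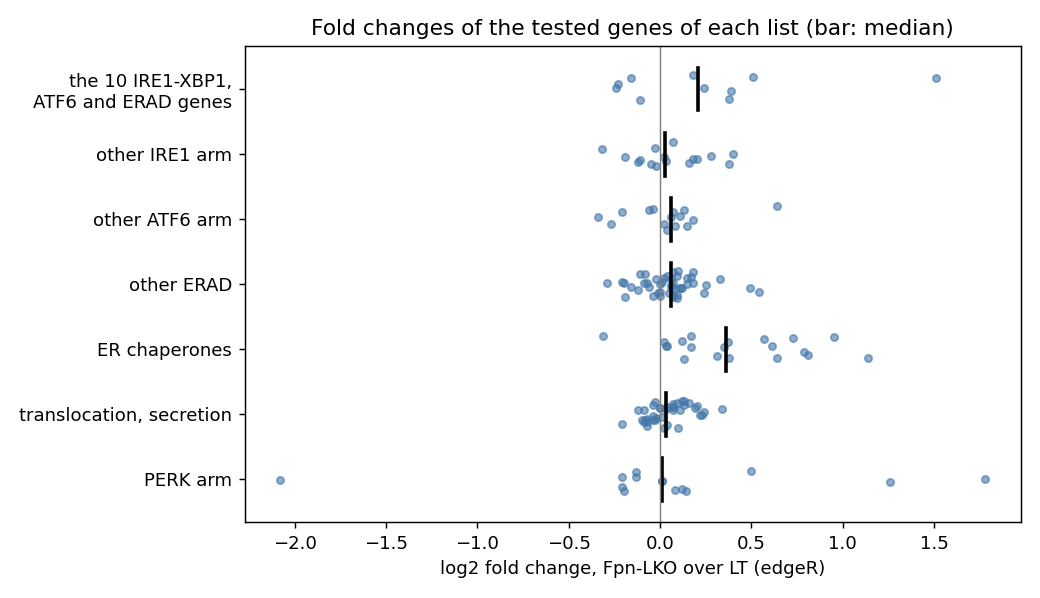
Log2 fold change, Fpn-LKO over LT, of each tested gene (dots) in the 10 genes and in 6 lists of the pathway, with the median as a bar. The medians are 0.21 for the 10 genes and 0.36 for the ER chaperones, and between 0.01 and 0.06 for the other 5 lists drawn, which leave out the transcripts degraded by IRE1 (median -0.06).

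Of 45 pairs, 32 had a positive Pearson correlation of log2 CPM and 18 had one above 0.5. This is a description over 6 libraries that share their grouping and the high values of LT replicate 3. The like shares over pairs of all genes were not computed, so these counts have no background beside them. The highest were Atf6b with Derl3 (0.94), Atf6b with Sel1l (0.85), Syvn1 with Derl3 (0.84) and Dnajb9 with Herpud1 (0.80). The lowest were Ern1 with Atf6b and Atf6 with Herpud1, at -0.50 each. Xbp1 followed Atf6b (0.76) and Derl3 (0.70) but not Dnajb9 (0.15) or Herpud1 (-0.41). Of 6878 other genes with a mean of at least 10 CPM, those most like Xbp1 over the 6 libraries were Spp2 (0.982), Ptbp1 (0.972), Spryd4 (0.968), Fndc3b (0.961) and Nepro (0.960). Each of these, like Xbp1, was highest in Fpn-LKO replicate 3, so the correlations lean on that library.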

How the data were processed

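Liver RNA of 3 LT and 3 Fpn-LKO mice was sequenced by the authors in paired reads. Per the labels, the tools were bcl2fastq 2.20.0, FastQC 0.11.7, HISAT2 2.1.0, Bowtie2 2.3.4.1 and StringTie 2.1.3b, with build mm10. The deposited read counts per RefSeq gene are not normalized. The authors also deposited FPKM (not used here) and TPM, both scaled to transcript length. The methods describe rRNA removal and the labels an mRNA kit.

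The quasi-likelihood test of edgeR 4.0.16 (R 4.3.3) was run on these counts after TMM scaling, in place of the exactTest the methods name. As in the methods, a gene could be without reads in at most 1 library. The standard error was derived from the F statistic. Biological replicates are single mice, and the common biological coefficient of variation was 0.275. Alternatives used DESeq2 1.42.0, limma 3.58.1 on log2(TPM + 1) and log2(TPM + 0.1), other filters and scaling, a replicate block and leaving out each library. Scripts were tested on simulated data. Near-identical transcripts were sought with BLAST 2.17.0 (at least 90% identity over 100 bases). Of 48 other ERAD genes, 47 were found by symbol. Promoters come from RefSeq (GRCm38.p6) and Xbp1-201 from GENCODE M21.

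The 10 genes and all lists were chosen with earlier results of these data known. Named genes were the 10, Slc40a1, 14 pathway genes fixed by symbol, the 3 of each pathway list with the smallest p, and the 5 most like Xbp1, and any other gene named was chosen after its values were seen. A gene that this rule names is not reported here.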

Additional observations from a re-analysis of the deposited data

How the results depend on the processing

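The count of the 10 genes that passed over all genes was 0 in every alternative run, with edgeR, DESeq2 and limma alike, and at an unadjusted p under 0.05 it was 1 in the main analysis. That latter count was 2 with limma on log2(TPM + 1), 3 on log2(TPM + 0.1), 2 with the replicate block and 0 to 3 when leaving out 1 library, where the shares of all genes were 4.95%, 4.82%, 4.92% and 3.61% to 5.46%. Over all genes, 4 passed in the main analysis, 72 with DESeq2, 63 with exactTest, 7 with limma on log2(TPM + 0.1), 0 with the replicate block and 0 to 6 when leaving out 1 library. The median log2 fold change of the 10 genes, 0.21, was 0.31 with log2(TPM + 1), 0.38 with log2(TPM + 0.1), 0.28 with the replicate block and 0.02 to 0.40 when leaving out 1 library, whereas the median of all genes moved to 0.083 and 0.097 with the TPM values. Same-numbered mice share only a number. Their deviations from the group means correlated at 0.129, -0.00948 and 0.0448, and not every library correlated best with its own number. Among the genes named by rule, which alone were followed through the alternatives, several changed sign when 1 library was left out. On leaving out each library in turn, the log2 fold change ranged from -0.21 to 0.03 for Atf6 (positive without Fpn-LKO replicate 2), from -0.48 to 0.33 for Dnajb9 (positive without LT replicate 3), and from -0.38 to 0.09 for Herpud1 (0.01 without Fpn-LKO replicate 3, 0.09 without LT replicate 3). It ranged from -0.07 without LT replicate 1 to 1.03 without LT replicate 3 for Syvn1. Other genes that turned were Slc40a1 (-0.11 to 0.14, with -0.10 without Fpn-LKO replicate 3), Creb3l3 (-0.04 to 0.10, with -0.02 without LT replicate 1), Tmbim6 (-0.14 to 0.14), Eif2ak3 (-0.43 to 0.18), Ddit3 (-0.07 to 1.20), Derl1 (-0.03 to 0.09), Edem2 (-0.07 to 0.48), Vcp (-0.01 to 0.12), Ptbp1 (-0.03 to 0.27) and Fndc3b (-0.03 to 0.45). Os9 (-0.13 to 0.16) and Edem3 (-0.11 to 0.19), both 0.00 in the main analysis, took both signs. Sel1l had an unadjusted p over 0.05 without Fpn-LKO replicate 1, LT replicate 1 or LT replicate 2. The cause was not tested.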
